A study of Mus musculus with 12 samples.

Results

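Cytochrome P450s (genes named Cyp), UDP-glucuronosyltransferases (Ugt) and cytosolic and mitochondrial glutathione S-transferases (Gst) were followed through kidney tumors that lack the Hippo pathway kinases Lats1 and Lats2. The members were the genes of the deposited expression table whose mouse symbol starts with Cyp or Ugt and a digit, or with Gst, one of the class letters a, m, p, t, k, o or z, and a digit. The pattern matched 138 rows, and 3 rows named as pseudogenes were left out. This gave 135 of 24432 genes, made up of 99 Cyp, 14 Ugt and 22 Gst genes. One member, Cyp4x1os, is a transcript from the strand opposite Cyp4x1 and matched by its name. The study has 12 bulk RNA libraries of mouse, 3 in each of 4 groups. Its primary tumors of the kidney and its lung metastases came from Slc34a1CreERT2;Lats1/2flox/flox mice of mixed strain background, in which tamoxifen (3 injections at 1 month of age) switches on Cre recombinase in cells that express the proximal tubule phosphate transporter Slc34a1. The tumors were dissected 4 months later. Proximal tubule cells were sorted from kidneys of adult Slc34a1CreERT2;Lats1c/c;Lats2c/+;RosaTomato mice, so the normal group also carried Cre and conditional alleles. The submitters call these libraries wild type, and no source used here tells whether recombination had taken place in them. Allograft tumors grew for 6 weeks from Lats1-/-;Lats2-/- cells placed under the kidney capsule of NOD/scid mice. Such hosts have no T or B cells but keep their own kidney, stroma and myeloid cells. Nothing in the labels says that the 3 libraries of a group came from separate animals, so p-values measure the spread between these libraries, which may be technical.

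P450s are heme enzymes of the endoplasmic reticulum and mitochondria that insert 1 oxygen atom into drugs, fatty acids, sterols and vitamins. UGTs of families 1 and 2 join glucuronic acid to such products, and GSTs join glutathione to electrophiles, which makes both groups easier to excrete. The proximal tubule is the part of the nephron richest in many of these enzymes: it hydroxylates arachidonic acid, activates and degrades vitamin D, and takes up and conjugates drugs. Several of the mouse genes are known for levels that differ between the sexes in kidney.

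Values are FPKM, sequenced fragments scaled to transcript length and to the library total. The values of a library summed to 706093 to 738052 FPKM in proximal tubule cells and to 1.35e+06 to 2.53e+06 in the 9 tumor libraries, in each of which the small RNA gene Mir6236 was the largest single entry (317686 to 1.08e+06 FPKM). For this reason small changes against proximal tubule cells depend on the scaling: the median change of all 16313 tested genes in log2(FPKM + 1) was 0.59, 0.68 and 0.66 for primary tumors, metastases and allografts as deposited, and -0.29, -0.18 and -0.37 after rescaling each library to the same total (TPM). Depth is not stated. Steps between low values gave an estimated depth of 12.98 to 20.96 M fragments (M, mega) in the tumor libraries, where 61.8% to 64.8% of low values were whole steps within 1%, so that 1 fragment of a 2 kb transcript was worth 0.0273 to 0.0440 FPKM. The proximal tubule columns showed no such steps (13.0% to 15.4% whole), and their depth was not estimated. Lats1 measured 11.9 to 12.8 FPKM in normal cells, 12.3 to 14.7 in primary tumors, 9.54 to 10.7 in metastases and 5.60 to 7.82 in allografts, and Lats2 10.49 to 10.96, 13.0 to 21.4, 19.9 to 22.5 and 12.2 to 17.1. A value per gene does not show whether single exons are deleted, so these do not check the genotypes. Of the marker lists, 10 proximal tubule markers summed to 5061 to 6014 FPKM in the sorted cells. Among them, Slc7a13 was low in these cells (0.47 to 0.71 FPKM) and measured 0.46, 280 and 105 in primary tumors 1, 2 and 3. Whether the sorted cells cover all parts of the proximal tubule was not tested, and rises against them carry this limit. The 7 lung epithelium markers summed to 12274 to 19541 in metastases against at most 40.0 elsewhere. Primary tumors 1, 2 and 3 differed widely, with proximal tubule marker sums of 162, 4216 and 1118, and sums over 6 markers of the thick limb, distal tubule and collecting duct of 299, 2022 and 4316. Tumors 2 and 3 also carried a male pattern of the sex-linked genes (Xist 0.32 and 0.37, Ddx3y 29.98 and 20.52 FPKM), whereas tumor 1, the proximal tubule cells and the metastases carried the female one (Xist 87.9 to 183 FPKM).

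Of the 135 genes, 71 reached 1 FPKM in at least 3 libraries and were tested (44 Cyp, 9 Ugt, 18 Gst). Another 58 stayed under 1 FPKM in every library. Among the genes under the filter were all 7 Cyp3a genes of the chromosome 5 cluster, the main hepatic drug oxidases, and all 14 Cyp2c genes of the chromosome 19 cluster. The same held for Cyp1a1, the classical target of the aryl hydrocarbon receptor, at 0 to 0.79 FPKM, and for Cyp11a1, the first enzyme of steroid synthesis, at 0 to 0.24 FPKM. Gsta1 reached 1.88 and 3.31 FPKM in proximal tubule cells 2 and 3 and stayed under 1 elsewhere, and Gstm3 was at most 0.16 FPKM. Summed over all members, proximal tubule cells held 4879, 5269 and 6875 FPKM. Metastases held 694, 884 and 1058, and allografts 702, 746 and 479, well under every proximal tubule library. Primary tumors held 760, 10602 and 3031 FPKM, so tumor 1 lay with the metastases and tumor 2 above the normal cells. These are dissected tissues, in which fewer cells of a type and less RNA per cell cannot be told apart.

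**Figure D1:**
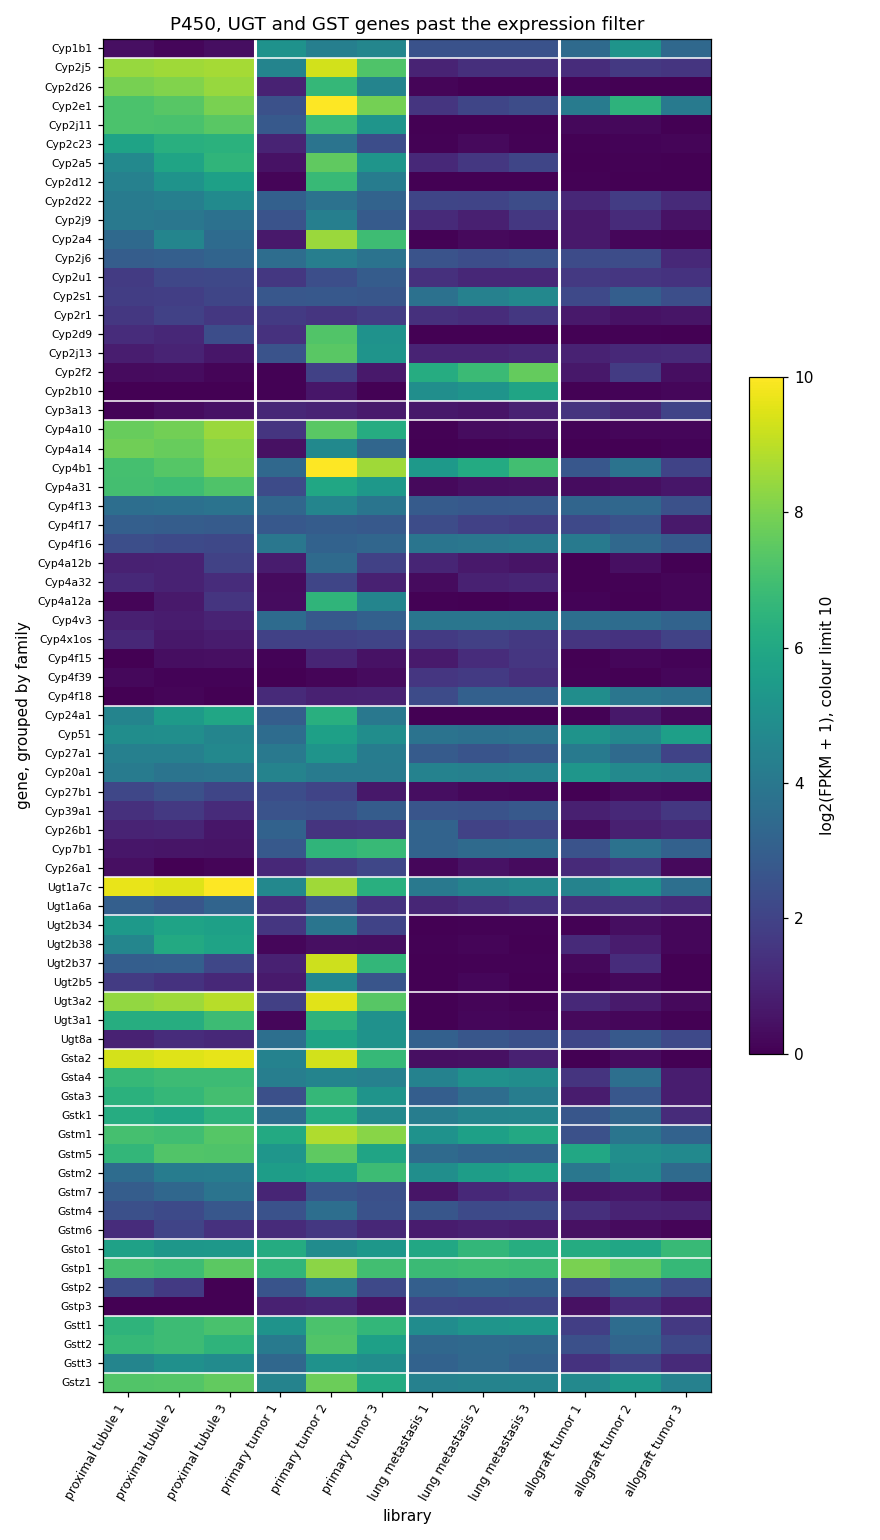
Level of each of the 71 genes past the filter (rows, grouped by family and ordered within a family by the proximal tubule mean) in each of the 12 libraries (columns), as log2(FPKM + 1) with the colour scale ending at 10. Most of the genes that are bright in the 3 proximal tubule columns are dark in metastases and allografts, and primary tumor 2 resembles the proximal tubule columns more than primary tumor 1 does.

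Against proximal tubule cells, 36 of the 71 genes fell and 18 rose in metastases, where limma's test called 14.4% of all genes lower and 54.0% higher. In allografts 38 fell and 12 rose, against 16.9% lower and 52.2% higher over all genes. Primary tumors, whose 3 libraries differed most, had 14 lower and 19 higher calls, against 4.90% lower and 48.2% higher over all genes. The median change of the 71 genes was -0.01 in primary tumors, -1.39 in metastases and -1.38 in allografts. The counts of falls in metastases and allografts held within 1.5 times under every alternative run, whereas rises depended on scaling: after TPM rescaling 7, 11 and 5 genes rose in primary tumors, metastases and allografts, and 35, not 14, fell in primary tumors. Over all genes the share of calls that were rises went from 90.8% to 35.9% in primary tumors, from 78.9% to 43.7% in metastases and from 75.6% to 33.6% in allografts under the same rescaling. A fit without primary tumors 2 and 3 leaves only primary tumor 1, with no spread of its own, so its calls are not counted. Without tumor 2 alone 25 fell. Leaving out any 1 proximal tubule library left 12 rises in primary tumors.

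**Figure D2:**
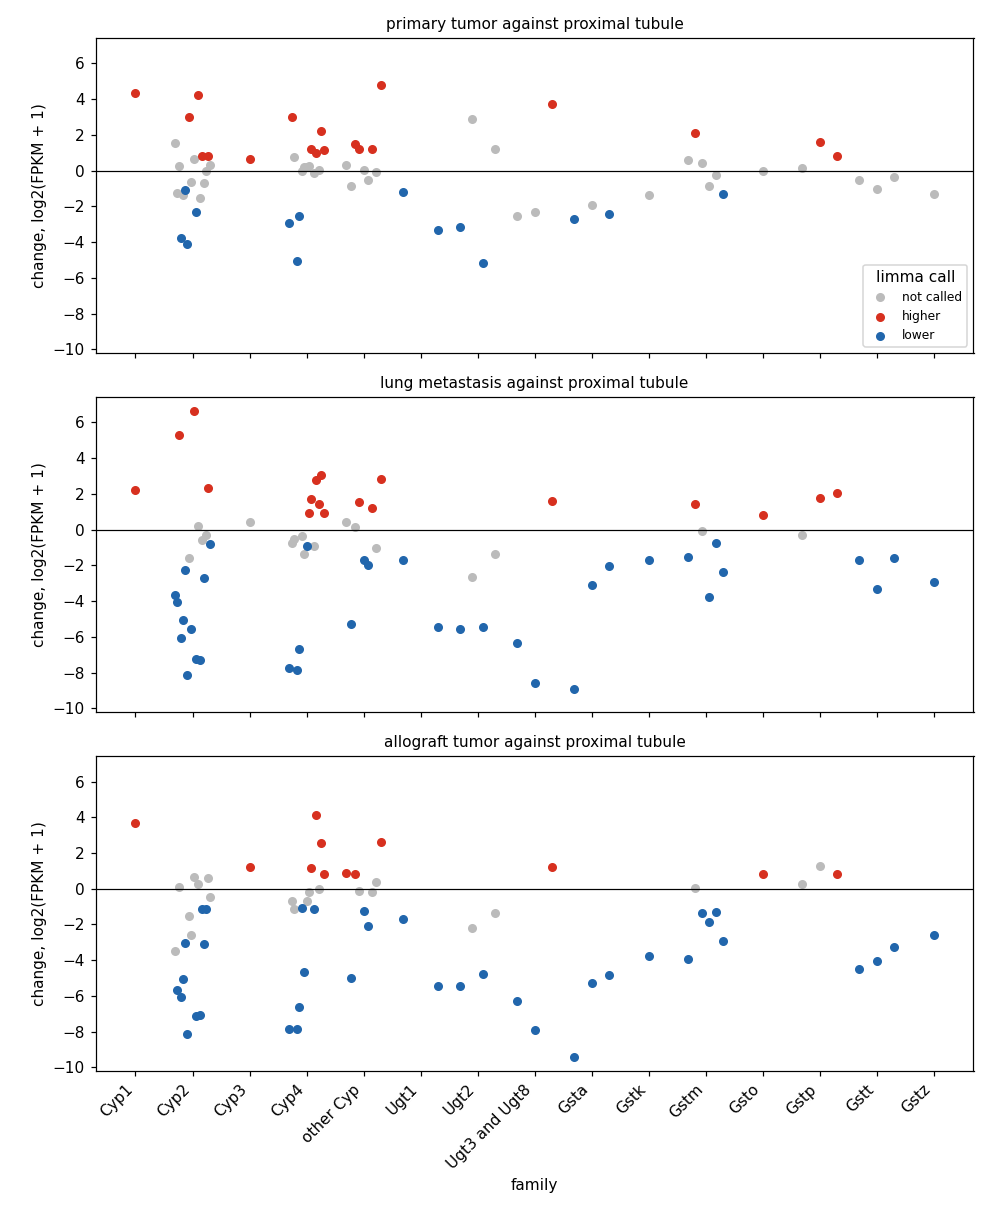
Change of each tested gene against proximal tubule cells in log2(FPKM + 1), by family, in primary tumors (top), metastases (middle) and allografts (bottom). Each point is 1 gene, coloured by its limma call at an adjusted p under 0.05, and within a family genes stand in the same order in all 3 panels. The Ugt1, Gsta, Gstt, Gstk and Gstz points are blue in both the metastasis and the allograft panel, while Cyp1b1, Ugt8a and several Cyp4 genes lie above 0 in all 3.

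The 3 comparisons share the proximal tubule libraries, so their calls are not independent. Joint patterns were not counted over all genes, so the counts that follow list members and have no general share beside them. Side by side, 14 genes were lower in all 3 tumor groups: Cyp2c23, Cyp2d22, Cyp2d26, Cyp2j11, Cyp4a10, Cyp4a14, Cyp4a31, Gsta2, Gsta4, Gstm7, Ugt1a6a, Ugt1a7c, Ugt2b34 and Ugt2b38. All 14 kept the 3 calls after TPM rescaling, median-of-ratios scaling and quantile normalization. With only the 2 groups compared in the fit, the lower calls in primary tumors went from 14 to 8, and those of Gsta2 and Cyp2d26 were among the ones lost (adjusted p = 0.11 and 0.057, limma). Another 18 were lower in metastases and allografts and not called in primary tumors. Another 8 members were higher in all 3 groups, and this list depended on the scaling, since 3 kept all calls after TPM rescaling (Cyp1b1, Cyp4v3, Gstp3), 6 under median-of-ratios scaling and 1 (Cyp4v3) under quantile normalization. The remaining level was measured for the 42 members with a proximal tubule mean of at least 5 FPKM. The median gene stood at 6.99%, 7.84% and 10.8% of that mean in the metastases and at 3.10%, 8.84% and 1.72% in the allografts. In primary tumors 1, 2 and 3 it stood at 13.4%, 122.9% and 43.7%. These members were chosen by the same proximal tubule values that form the denominator, so members low in those cells could not enter. The same median was not computed over all genes, so these shares describe the 42 members only.

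**Figure D3:**
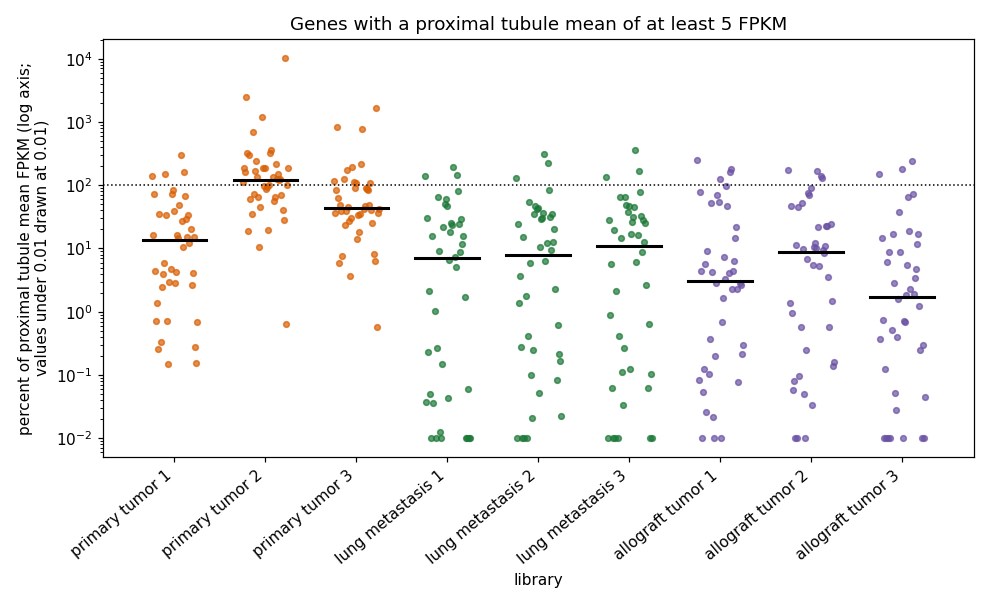
Level of each of the 42 genes with a proximal tubule mean of at least 5 FPKM in each tumor library, as percent of that mean on a log axis (values under 0.01% are drawn at 0.01%). Points are genes and black bars the median, which lies between 1.72% and 10.8% in the 6 metastasis and allograft libraries and at 13.4%, 122.9% and 43.7% in primary tumors 1 to 3. The genes were chosen by the same proximal tubule mean that they are divided by.

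The Cyp2 family holds the epoxygenases, which turn arachidonic acid into epoxyeicosatrienoic acids, and many drug oxidases. Of its 18 tested genes, 11 fell (61.1%, against 14.4% of all genes) and 3 rose (16.7%, against 54.0%) in metastases, and 10 fell (55.6%, against 16.9%) and none rose (against 52.2%) in allografts. Cyp2j5, the abundant renal epoxygenase, measured 349, 376 and 407 FPKM in proximal tubule cells, 1.01, 1.57 and 1.58 in metastases and 1.39, 2.15 and 1.93 in allografts. No tumor library of these groups came near the normal cells, and the change in log2(FPKM + 1) was -7.32 in metastases (SE 0.87, adjusted p = 4.8e-05) and -7.07 in allografts (adjusted p = 5.0e-05). In primary tumors it measured 22.0, 634 and 150 FPKM, on both sides of the normal range, and was not called (-1.54, adjusted p = 0.16). Cyp2d26, a member of the mouse Cyp2d cluster, went from 243, 271 and 351 FPKM to 0.97, 101 and 21.7 in primary tumors, and to at most 0.10 in each metastasis and allograft. It was lower in primary tumors in every library (-4.11, SE 1.04, adjusted p = 0.0075), a call lost when these groups were fitted alone, and it was close to the floor of these libraries in metastases (-8.11) and allografts (-8.12). Cyp2c23, the other main arachidonic acid epoxygenase of mouse kidney, lies apart from the other Cyp2c genes and fell in the 3 groups from 54.7, 77.4 and 83.5 FPKM to 0.97, 13.5 and 4.17 in primary tumors and to at most 0.20 in the other tumors. Cyp2j11 behaved alike, with 143, 141 and 173 FPKM in normal cells, 5.96, 111 and 35.7 in primary tumors and at most 0.16 in metastases and allografts.

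Cyp2e1, which oxidizes ethanol and small solvents, measured 143, 167 and 255 FPKM in proximal tubule cells and 1.93, 3.30 and 3.95 in metastases, where it fell (-5.54, SE 1.53, adjusted p = 0.0081). It measured 4.62, 1287 and 236 FPKM in primary tumors. In allografts it stood at 17.1, 86.4 and 16.4 FPKM, under every normal library but not called (-2.61, adjusted p = 0.15). The fall in allografts was called after TPM rescaling (-3.96, adjusted p = 0.034, limma) and with only the 2 groups compared (adjusted p = 0.013, limma). The 4 adipocyte markers summed to 122, 399 and 21.3 FPKM in the same allografts, with Adipoq at 79.5, 218 and 13.7, and the sum was at most 3.25 in every other library. Allograft 2 was thus the highest for both Cyp2e1 and the adipocyte markers. The part of these cells in the Cyp2e1 level was not tested.

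The Cyp4 family hydroxylates the ends of fatty acids, and its Cyp4a genes are textbook targets of the fatty acid receptor PPAR alpha. Cyp4a14 measured 228, 206 and 297 FPKM in proximal tubule cells, 0.36, 26.2 and 8.83 in primary tumors, and at most 0.081 in metastases and 0.068 in allografts. No tumor library overlapped the normal ones, and the change was -5.08 in primary tumors (SE 0.80, adjusted p = 5.5e-04), -7.85 in metastases and -7.87 in allografts (adjusted p = 1.9e-05 and 1.7e-05). Cyp4a10 and Cyp4a31, its neighbors on chromosome 4, went the same way, from 202 to 357 and from 118 to 151 FPKM to at most 0.29 and 0.53 in metastases and allografts. Ppara itself went from 39.5, 40.9 and 40.4 FPKM to 1.82, 29.6 and 8.95 in primary tumors, and to 0.35 to 0.66 in metastases and allografts. Cyp4b1, an oxidase of fatty acids and furans, measured 132, 163 and 286 FPKM in normal cells, 9.28, 2333 and 381 in primary tumors, 41.7, 67.3 and 124 in metastases and 5.59, 13.0 and 3.03 in allografts. The primary tumors alone spanned more than the other 3 groups together.

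Other Cyp4 genes moved the opposite way. Cyp4v3, a fatty acid hydroxylase whose human counterpart is mutated in a crystalline retinal dystrophy, measured 0.84, 0.70 and 0.99 FPKM in normal cells, 10.4, 5.84 and 7.37 in primary tumors, 14.2, 14.3 and 13.8 in metastases and 11.4, 10.5 and 8.01 in allografts. It rose by 2.24 (SE 0.20, adjusted p = 2.4e-05), 3.03 (adjusted p = 1.7e-06) and 2.56 (adjusted p = 5.1e-06), in 9 of 9 tumor libraries. Cyp4f18, which inactivates leukotriene B4 in myeloid cells, measured at most 0.095 FPKM in normal cells, 1.26, 0.88 and 0.94 in primary tumors, 3.84, 7.39 and 7.30 in metastases and 28.7, 14.01 and 12.2 in allografts. Allografts were above proximal tubule cells (4.13, SE 0.31, adjusted p = 4.2e-06), above primary tumors (3.16, adjusted p = 1.1e-04) and above metastases (1.37, adjusted p = 0.0092). The 6 macrophage markers summed to 4186, 2276 and 1083 FPKM in allografts 1 to 3, to 1304, 1068 and 901 in metastases, to 1555, 203 and 243 in primary tumors and to at most 6.09 in proximal tubule cells. The 5 neutrophil markers summed to 27.7, 40.2 and 25.0 FPKM in allografts and to 221, 366 and 440 in metastases. Cyp4f18 ran in the macrophage order among the allografts but not among the metastases, where metastasis 1 had the highest macrophage sum, the lowest neutrophil sum and the lowest Cyp4f18. Primary tumor 1 combined a high macrophage sum with 1.26 FPKM of Cyp4f18. The part of these cells was not tested.

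Among the P450s of vitamins, bile acids and sterols, the vitamin D genes Cyp24a1 and Cyp27b1 fell furthest in metastases and allografts. Cyp24a1, the mitochondrial enzyme that degrades active vitamin D, measured 22.1, 43.2 and 58.9 FPKM in proximal tubule cells and 6.64, 77.5 and 15.1 in primary tumors. It measured 0.016, 0 and 0 FPKM in metastases and 0.035, 0.58 and 0.15 in allografts. The change was -5.29 in metastases (SE 0.68, adjusted p = 7.8e-05) and -5.00 in allografts (adjusted p = 9.6e-05), and metastases were also lower than primary tumors (-4.40, adjusted p = 0.0017). Cyp27b1, which makes the active hormone, measured 3.35, 4.59 and 3.31 FPKM in normal cells, 4.12, 3.10 and 0.58 in primary tumors and at most 0.29 in metastases and 0.20 in allografts, and fell in both (-1.98 and -2.07, adjusted p = 6.1e-04 and 4.0e-04). Cyp2r1, a vitamin D 25-hydroxylase, measured 2.04 to 2.87 FPKM in normal cells and 0.39 to 0.59 in allografts (-1.16, SE 0.16, adjusted p = 1.0e-04), while primary tumors (1.91 to 2.47) and metastases (1.40 to 2.11) reached into or near the normal range. The vitamin D receptor Vdr measured 56.9 to 62.3 FPKM in normal cells and at most 3.52 in metastases and 2.13 in allografts.

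Cyp27a1, which oxidizes cholesterol side chains, measured 19.4 to 24.7 FPKM in normal cells, 5.11 to 6.31 in metastases and 3.06 to 16.3 in allografts, and fell in both (-1.70 and -1.26, adjusted p = 0.0071 and 0.030). Cyp51, the lanosterol demethylase of cholesterol synthesis, measured 29.1, 29.5 and 22.4 FPKM in normal cells, 10.7, 51.01 and 28.7 in primary tumors, 12.9, 11.9 and 12.6 in metastases and 33.8, 24.6 and 49.0 in allografts, and was called in none of the comparisons with normal cells. Cyp39a1, a 7 alpha-hydroxylase of 24-hydroxycholesterol, measured 1.36 to 2.15 FPKM in normal cells, 4.45 to 6.55 in primary tumors, 4.85 to 5.97 in metastases and 0.85 to 2.10 in allografts. Cyp26b1, which degrades retinoic acid, measured 0.51 to 1.05 FPKM in normal cells and 0.25 to 1.13 in allografts, while primary tumors measured 1.86 to 7.80 and metastases 2.95 to 7.99. In the deposited FPKM, both were thus higher in each tumor library of the floxed mice than in any normal or allograft library. Their values under the other scalings are not given here, and rises against normal cells depended on scaling.

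Cyp1b1, which oxidizes estrogens, retinoids and polycyclic hydrocarbons and is known from stromal cells, measured 0.34, 0.12 and 0.29 FPKM in proximal tubule cells. It measured 33.2, 18.8 and 23.1 FPKM in primary tumors, 4.74, 4.75 and 4.67 in metastases and 10.04, 34.96 and 9.43 in allografts. The rise was 4.35 in primary tumors (SE 0.41, adjusted p = 3.2e-05), 2.20 in metastases (adjusted p = 7.7e-04) and 3.69 in allografts (adjusted p = 2.6e-05), and metastases were below primary tumors (-2.15, adjusted p = 0.0053). The rise in metastases shrank to 0.96 and was not called after quantile normalization. The 5 fibroblast markers summed to 1.69 to 3.27 FPKM in normal cells, 96.8 to 313 in primary tumors, 160 to 191 in metastases and 277 to 673 in allografts, and primary tumor 1 and allograft 2 were the highest of their groups for both Cyp1b1 and these markers. Their part in the result was not tested. The aryl hydrocarbon receptor Ahr, a known inducer of Cyp1b1, measured 1.95 to 2.61 FPKM in normal cells and 4.13 to 17.0 in the tumors. The 250 bases before the Cyp1b1 start site (RefSeq, GRCm38.p6, chr17:79715062-79715311, minus strand) are shown because they hold the core motif of that receptor, GCGTG, searched on both strands. The match lies on the reverse strand, and its letters are in capitals.
Cyp1b1: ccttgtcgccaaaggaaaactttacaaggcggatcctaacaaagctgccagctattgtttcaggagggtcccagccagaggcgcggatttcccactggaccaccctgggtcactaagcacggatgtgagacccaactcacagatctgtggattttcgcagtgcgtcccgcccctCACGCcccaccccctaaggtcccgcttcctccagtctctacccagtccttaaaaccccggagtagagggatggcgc
In windows of 300 bases (250 before to 50 after a start site), this motif was found in 5 of the 7 windows of members higher in all 3 tumor groups, in 1 of the 9 windows of members lower in all 3, in 20.3% of the 128 windows of members and in 32.4% of all 32851 windows. A match is a description of these letters and not of binding.

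Cyp7b1 and Ugt8a also rose against normal cells in the 3 tumor groups. Cyp7b1, an oxysterol and steroid hydroxylase, measured 0.51, 0.47 and 0.43 FPKM in proximal tubule cells, 5.88, 92.5 and 107 in primary tumors, 7.97, 10.1 and 10.4 in metastases and 4.87, 12.6 and 7.72 in allografts. The rise was 4.81 in primary tumors (SE 0.84, adjusted p = 0.0010), 2.83 in metastases (adjusted p = 0.012) and 2.59 in allografts (adjusted p = 0.018). The calls in metastases and allografts were lost after quantile normalization (1.72 and 1.59) and with a pseudocount of 5 (1.40 and 1.25), and that in allografts also after TPM rescaling (1.65) and without allograft 2 (2.28). Ugt8a, the ceramide galactosyltransferase of myelin and kidney glycolipids, measured 0.94, 1.42 and 1.23 FPKM in normal cells, 11.6, 57.0 and 33.9 in primary tumors, 7.46, 5.45 and 4.45 in metastases and 3.26, 5.87 and 3.64 in allografts. It rose by 3.75 in primary tumors (SE 0.46, adjusted p = 1.3e-04), where no alternative run changed the call. Its rises in metastases (1.61) and allografts (1.23) were lost after TPM rescaling (0.85 and 0.28) and quantile normalization (0.41 and 0.24), and that in allografts also without any 1 proximal tubule library and without allograft 2 or 3.

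Of the 9 tested UGTs, 4 fell in primary tumors (44.4%, against 4.90% of all genes), and 6 each fell in metastases and allografts (66.7%, against 14.4% and 16.9%). Ugt8a was the 1 that rose. Ugt1a7c was the most abundant member in 2 of the 3 normal libraries, at 815, 728 and 1259 FPKM. It measured 24.5, 385 and 77.7 FPKM in primary tumors, 15.7, 21.1 and 24.6 in metastases and 21.05, 32.7 and 11.6 in allografts, under every normal library throughout. It fell by 3.31 in primary tumors (SE 0.78, adjusted p = 0.0052), 5.43 in metastases (adjusted p = 1.5e-04) and 5.43 in allografts (adjusted p = 1.3e-04). The Ugt1 genes share their last exons, and 55.7% of the 31-base words of Ugt1a7c transcripts are also found in another gene, most of them in Ugt1a6a, so how reads were divided among them is uncertain. Ugt3a2, which uses other sugars than glucuronic acid, measured 330, 375 and 488 FPKM in normal cells, 2.72, 742 and 169 in primary tumors, at most 0.089 in metastases and 0.18 to 1.20 in allografts. It fell in metastases (-8.56, SE 1.43, adjusted p = 4.0e-04) and allografts (-7.93, adjusted p = 5.9e-04) and was not called in primary tumors (-2.34, adjusted p = 0.19), where it was called without tumor 2 (-3.97) and after TPM rescaling (-3.39).

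The Ugt2b genes lie together on chromosome 5 and parted from each other in primary tumors. Ugt2b38 measured 23.1, 65.9 and 54.9 FPKM in normal cells and 0.13, 0.31 and 0.28 in primary tumors, so all 3 primary tumors had lost it, tumor 2 included (-5.18, SE 0.35, adjusted p = 5.8e-06). It stayed at most 0.10 FPKM in metastases and 1.26 in allografts. Ugt2b37 measured 6.86, 7.12 and 3.36 FPKM in normal cells and 0.89, 595 and 96.7 in primary tumors, and at most 0.037 and 1.38 in metastases and allografts. Ugt2b5 measured 2.32, 1.77 and 1.21 FPKM in normal cells and 0.66, 23.7 and 5.21 in primary tumors. Ugt2b37 and Ugt2b5 were thus above the normal range in the tumors 2 and 3 with a male pattern and under it in tumor 1, and neither was called against normal cells. Ugt2b34, the first gene of the cluster, fell from 39.9, 54.9 and 51.1 FPKM to 1.97, 13.6 and 3.06 in primary tumors (-3.13, SE 0.46, adjusted p = 3.7e-04) and to at most 0.28 in the other tumors.

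The promoters of Ugt2b37 and Ugt2b38 are shown because they are nearly the same while their levels in primary tumors 2 and 3 were far apart. Both are the 250 bases before the RefSeq start site in GRCm38.p6, on the minus strand, at chr5:87254789-87255038 and chr5:87424204-87424453. Over 236 aligned bases 94.9% were identical, and capitals mark the 12 bases that differ from the aligned base of the other gene.
Ugt2b37: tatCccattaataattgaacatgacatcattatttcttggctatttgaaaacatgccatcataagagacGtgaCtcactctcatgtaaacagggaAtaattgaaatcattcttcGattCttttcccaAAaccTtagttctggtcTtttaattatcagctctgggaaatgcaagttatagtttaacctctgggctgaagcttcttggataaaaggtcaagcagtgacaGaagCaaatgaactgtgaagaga
Ugt2b38: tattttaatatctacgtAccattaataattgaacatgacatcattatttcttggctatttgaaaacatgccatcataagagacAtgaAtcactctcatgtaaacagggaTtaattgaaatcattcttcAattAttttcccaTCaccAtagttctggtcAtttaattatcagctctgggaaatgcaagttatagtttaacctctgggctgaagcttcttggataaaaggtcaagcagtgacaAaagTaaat
Neither window held any of the 4 motifs searched on both strands (HNF4 CAAAGTCCA, HNF1 GTTAATNAT, antioxidant response element TGACNNNGC, dioxin response element core GCGTG). Ugt2b5 shares 56.4% of its 31-base words with other genes, most of them with Ugt2b38, so how reads were divided among these neighbors is uncertain.

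A like pair lies in the Cyp2 cluster of chromosome 7. Cyp2a4, a steroid 15 alpha-hydroxylase, measured 9.57, 22.7 and 10.3 FPKM in normal cells and 0.63, 358 and 118 in primary tumors. Cyp2a5, the mouse coumarin hydroxylase, measured 24.9, 55.9 and 92.1 FPKM in normal cells and 0.40, 187 and 36.6 in primary tumors. Cyp2a5 was therefore the higher of the pair in each normal library and Cyp2a4 in each primary tumor. Their windows, at chr7:26306942-26307191 and chr7:26835089-26835338 on the plus strand, were 98.4% identical over 249 aligned bases, with the 4 differing bases in capitals.
Cyp2a4: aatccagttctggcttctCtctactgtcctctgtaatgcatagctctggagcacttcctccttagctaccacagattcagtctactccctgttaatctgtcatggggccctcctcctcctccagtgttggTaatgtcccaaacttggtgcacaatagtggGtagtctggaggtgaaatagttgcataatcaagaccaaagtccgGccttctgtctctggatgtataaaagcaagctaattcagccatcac
Cyp2a5: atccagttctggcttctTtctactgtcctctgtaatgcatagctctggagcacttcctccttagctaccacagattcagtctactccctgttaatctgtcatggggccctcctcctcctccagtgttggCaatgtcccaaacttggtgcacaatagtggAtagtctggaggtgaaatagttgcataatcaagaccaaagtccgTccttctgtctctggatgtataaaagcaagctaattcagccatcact
Of the 31-base words of Cyp2a4, 58.1% are shared with other genes, most of them with Cyp2a5, so the ratio of this pair is uncertain. Cyp2a4 was at most 0.20 FPKM in metastases and 0.62 in allografts, and Cyp2a5 1.24 to 3.25 and at most 0.033.

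**Figure D4:**
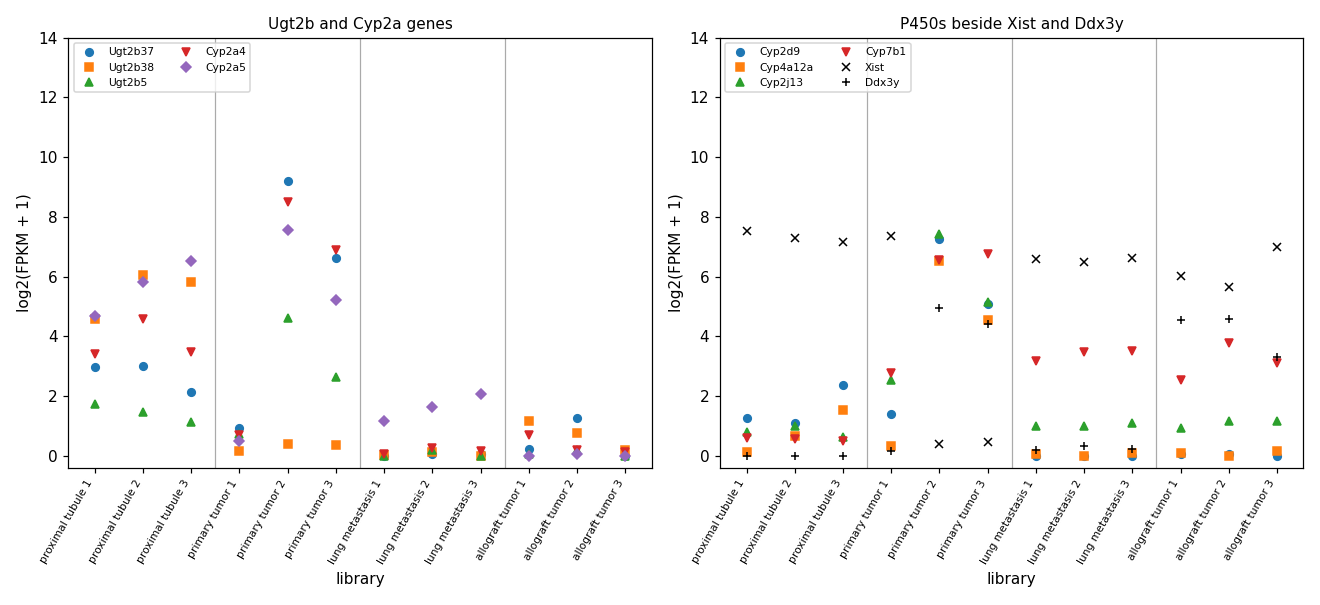
Levels in log2(FPKM + 1) in each of the 12 libraries. Left, 3 Ugt2b and 2 Cyp2a genes; right, 4 P450s with the X-linked Xist and the Y-linked Ddx3y. Ugt2b37 and Ugt2b38 part in primary tumors 2 and 3 (595 and 96.7 against 0.31 and 0.28 FPKM), and the P450s on the right peak in these 2 libraries, in which Ddx3y is high and Xist low.

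Within the primary tumors, many members shared an order of libraries. Of the 71 genes, 54 were highest in tumor 2, 55 were lowest in tumor 1, and 49 ran in the order 2, 3, 1. This order was not counted over all genes, so whether it is particular to the members was not tested. The FPKM total was also largest in tumor 2 (1.79e+06, against 1.50e+06 in tumor 1 and 1.40e+06 in tumor 3). Another 9 genes were highest in tumor 1, namely Cyp1b1, Cyp20a1, Cyp26b1, Cyp27b1, Cyp3a13, Cyp4f16, Cyp4f18, Cyp4v3 and Gsto1. The order of the proximal tubule marker sums was the same as that of the 49 genes. Some members in tumors 2 and 3 were far above any proximal tubule library, as was the proximal tubule marker Slc7a13. Cyp2j13 measured 0.74, 0.99 and 0.54 FPKM in normal cells and 4.85, 173 and 35.0 in primary tumors, and rose (4.25, SE 0.89, adjusted p = 0.0028). Cyp2d9, a testosterone 16 alpha-hydroxylase known as male-specific in mice, measured 1.43, 1.16 and 4.15 FPKM in normal cells and 1.67, 154 and 33.3 in primary tumors. Cyp4a12a, a fatty acid hydroxylase known from male kidney, measured 0.086, 0.59 and 1.93 FPKM in normal cells and 0.25, 91.2 and 22.6 in primary tumors. Both were called higher (3.01, adjusted p = 0.039, and 3.02, adjusted p = 0.0499), but the groups overlapped, and without tumors 2 and 3 both changed direction (-0.17 and -0.46). Each call was also lost under all 3 other scalings, without any 1 proximal tubule library and without tumor 2 or tumor 3 alone. Metastases and allografts held at most 0.042 FPKM of Cyp2d9 and 0.11 of Cyp4a12a. The allografts carried both sex-linked transcripts, Ddx3y at 8.94 to 22.8 FPKM and Xist at 48.9 to 127 FPKM. The sex of the animals is not in the labels, so in these 3 tumors the sex-linked pattern and the amount of kidney transcripts cannot be told apart.

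Of the 18 tested glutathione transferases, 12 fell (66.7%, against 14.4% of all genes) and 4 rose (22.2%, against 54.0%) in metastases, and 13 fell (72.2%, against 16.9%) and 2 rose (11.1%, against 52.2%) in allografts. Their median change was -1.65 and -2.76, beside -5.42 and -4.77 for the 9 tested UGTs and -0.77 and -1.10 for the 44 tested P450s. Gsta2, an alpha-class enzyme that also reduces lipid peroxides, measured 654, 734 and 799 FPKM in normal cells, 20.6, 642 and 103 in primary tumors, 0.32, 0.38 and 0.91 in metastases, and 0, 0.24 and 0 in allografts. No tumor library reached the normal range. The change was -8.91 in metastases (SE 0.89, adjusted p = 1.7e-05) and -9.40 in allografts (adjusted p = 1.2e-05), the largest falls among the 71 genes in both comparisons. Its fall in primary tumors (-2.69, adjusted p = 0.027) was lost when any 1 proximal tubule library, primary tumor 1 or primary tumor 3 was left out. Gsta4, which detoxifies the lipid aldehyde 4-hydroxynonenal, measured 104, 113 and 116 FPKM in normal cells and 18.2, 22.0 and 19.9 in primary tumors. The 3 primary tumors lay close together on this gene, all far under normal cells (-2.42, SE 0.56, adjusted p = 0.0046). It stood at 20.5, 32.3 and 28.8 FPKM in metastases and at 1.80, 11.6 and 0.76 in allografts, lower than in metastases (-2.81, adjusted p = 0.0051).

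The mu class lies in a cluster of 7 genes on chromosome 3 (chr3:107895821-108044894, GRCm38), and its neighbors differed. Gstm1, the main mu enzyme of liver, measured 132, 121 and 165 FPKM in normal cells, 67.2, 444 and 301 in primary tumors, 33.3, 50.8 and 63.7 in metastases and 4.62, 13.96 and 7.75 in allografts. Allografts were lower than normal cells (-3.95, SE 0.61, adjusted p = 2.1e-04) and than primary tumors (-4.53, adjusted p = 4.7e-04). Gstm5 measured 98.7, 153 and 152 FPKM in normal cells, 37.2, 185 and 56.8 in primary tumors, 9.95, 8.42 and 8.10 in metastases and 62.3, 29.3 and 25.5 in allografts, so that here metastases were the lowest group (-3.76 against normal cells, SE 0.52, adjusted p = 1.2e-04). Gstm2 measured 10.5, 17.5 and 17.7 FPKM in normal cells, 45.8, 55.1 and 116 in primary tumors and 29.9, 46.8 and 55.0 in metastases. It rose in both (2.09, SE 0.41, adjusted p = 0.0020, and 1.46, adjusted p = 0.0093), although not after TPM rescaling (1.02 and 0.44), and in metastases not after either other scaling. In allografts Gstm2 measured 14.6, 25.5 and 10.1 FPKM, across the normal range.

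The theta, kappa and zeta genes fell in metastases and allografts, and no omega or pi gene was called lower there. Gstt1 measured 90.7, 115 and 139 FPKM in normal cells, 34.1, 142 and 97.4 in primary tumors, 27.8, 36.1 and 38.0 in metastases and 2.63, 10.7 and 2.16 in allografts. It was lower in allografts than in normal cells (-4.48, SE 0.56, adjusted p = 5.2e-05) and than in metastases (-2.76, adjusted p = 0.0054). Gstt2 measured 90.3 to 114 FPKM in normal cells and 3.55 to 9.69 in metastases and allografts. Gstk1, the kappa enzyme of mitochondria and peroxisomes, measured 59.96 to 86.2 FPKM in normal cells, 18.1 to 23.2 in metastases and 1.36 to 8.93 in allografts. Gstz1, which isomerizes maleylacetoacetate in tyrosine breakdown, measured 156, 161 and 194 FPKM in normal cells, 21.1, 217 and 68.7 in primary tumors, 20.0, 21.4 and 21.7 in metastases (-2.95, SE 0.63, adjusted p = 0.0018) and 25.3, 38.8 and 20.2 in allografts. Gstp1, the pi-class enzyme common in tumors, measured 131, 117 and 176 FPKM in normal cells, 95.5, 302 and 123 in primary tumors, 113, 118 and 110 in metastases and 254, 184 and 103 in allografts. The groups overlapped, and limma's test called it in none of the 6 comparisons. It was the most abundant member in 4 of the 6 metastasis and allograft libraries. Gsto1, which reduces dehydroascorbate, measured 37.7 to 52.4 FPKM in normal cells, 28.5 to 70.1 in primary tumors, 62.7 to 97.6 in metastases and 59.6 to 105 in allografts. It rose by 0.83 and 0.82 in the latter groups (adjusted p = 0.044 and 0.046), which turned to -0.22 and -0.58 after TPM rescaling.

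Metastases were set against primary tumors, which came from mice of the same genotype. Their sex-linked patterns differed, female in the metastases and male in primary tumors 2 and 3, so site and sex pattern cannot be told apart. Here 33 of the 71 genes were lower and 7 higher in metastases, against 9.59% lower and 11.3% higher over all genes. The counts of lower genes moved whenever any 1 library of these groups was left out. Without metastasis 1, 2 or 3 they were 17, 16 and 15. Without primary tumor 2 or 3 they were 19 and 14, and without primary tumor 1 they were 44. Gsta2 (-6.23, SE 0.89, adjusted p = 0.0010) and Cyp2j5 (-5.78, adjusted p = 0.0014) were among the furthest apart. Higher in metastases were Cyp2b10, Cyp2f2, Cyp2s1, Cyp4f18, Cyp4f39, Cyp4v3 and Gstp3. Of these, Cyp2b10 and Cyp4f39 reached 1 FPKM in the 3 metastases only. They passed the filter through the group where they are high, so their calls lend no further support. Cyp2f2, the naphthalene oxidase of bronchiolar club cells, measured 72.9, 113 and 197 FPKM in metastases and at most 2.82 in every other library. It was higher by 6.63 than in normal cells (SE 0.51, adjusted p = 4.0e-06) and by 6.00 than in primary tumors (adjusted p = 3.3e-05). Cyp2b10, a target of the xenobiotic receptor CAR in liver that lung also expresses, measured 29.5, 35.4 and 57.0 FPKM in metastases, 0 in all normal libraries and at most 0.51 in the other tumors (5.09 above primary tumors, SE 0.23, adjusted p = 3.3e-07). Cyp2s1, an extrahepatic P450 of epithelia, measured 12.4, 20.2 and 24.4 FPKM in metastases, 2.56 to 3.23 in normal cells, 5.38 to 5.72 in primary tumors and 3.56 to 6.84 in allografts (1.56 above primary tumors, adjusted p = 0.0023).

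The sum of the 7 lung epithelium markers ran in the same order, at 12274, 17103 and 19541 FPKM in metastases 1 to 3. The club cell gene Scgb1a1 stood at 6438, 9267 and 11197 FPKM there, against at most 3.52 elsewhere. Of the 7, Scgb3a2 (383, 611 and 559 FPKM) and Foxj1 (18.0, 33.4 and 31.3) left this order. Foxj1 also measured 37.5, 30.4 and 21.7 FPKM in allografts. The order was shared by the sums of the endothelium markers (180, 269 and 313 FPKM) and the neutrophil markers (221, 366 and 440). The part of any of these cells in the levels of the 3 P450s was not tested. Cyp2f2, Cyp2s1 and Cyp2b10 belong to the Cyp2 cluster of chromosome 7 (13 members over 1356 kb). There these 3 genes rose in metastases against normal cells while Cyp2a4 and Cyp2a5 fell. Over all genes 54.0% rose and 14.4% fell in that comparison.

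**Figure D5:**
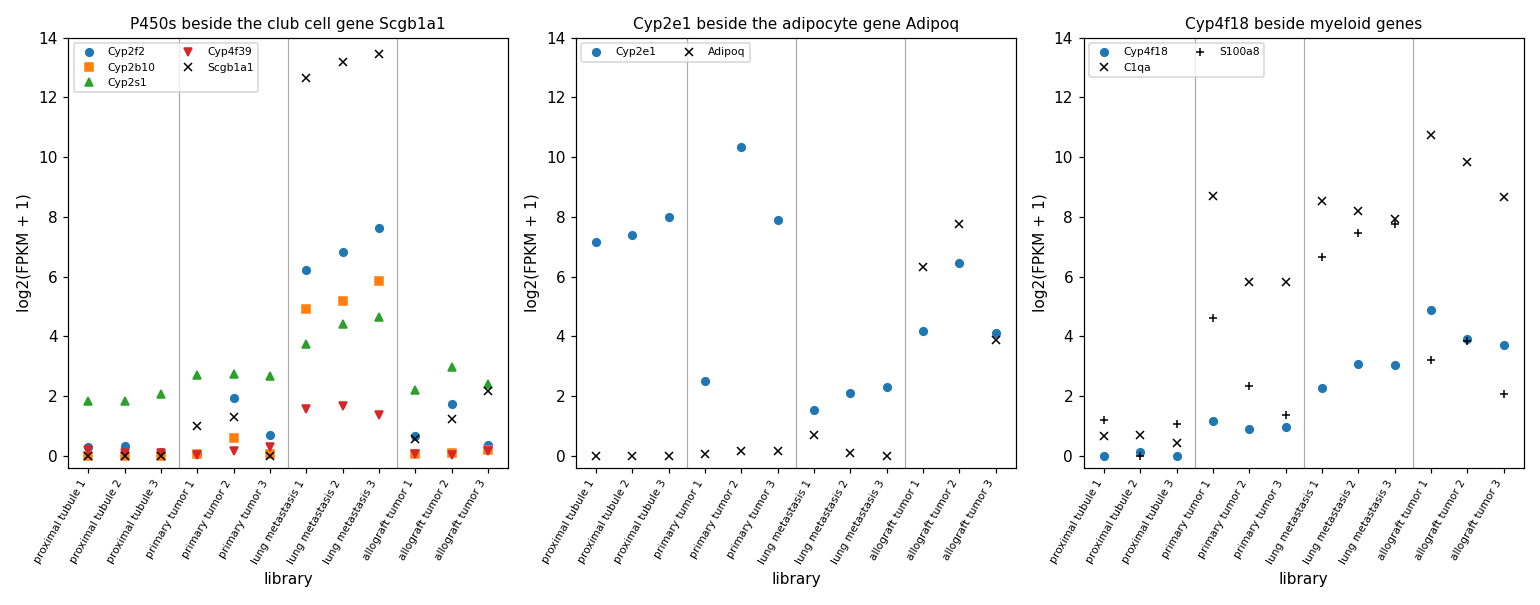
Levels in log2(FPKM + 1) in each of the 12 libraries. Left, 4 P450s with the club cell gene Scgb1a1; middle, Cyp2e1 with the adipocyte gene Adipoq; right, Cyp4f18 with the macrophage gene C1qa and the neutrophil gene S100a8. Cyp2f2 and Cyp2b10 are near 0 outside the metastases, in which Scgb1a1 is between 6438 and 11197 FPKM.

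Allograft tumors were set against primary tumors and metastases. The sex-linked patterns differed here too, since the allografts carried both Xist and Ddx3y. Against primary tumors 45 of the 71 genes were lower and 2 higher (Cyp4f18 and Cyp20a1), where 21.1% of all genes were lower and 20.5% higher. With only the 2 groups compared the lower genes were 19. The higher genes were 1 without primary tumor 2, primary tumor 3 or allograft 1, and 4 without primary tumor 1. Gsta2 (-6.72, SE 0.89, adjusted p = 4.4e-04) and Gstm1 were among the largest falls of abundant genes. Against metastases 17 genes were lower and 5 higher, against 13.3% and 10.4% of all genes. Of the 17, 8 were glutathione transferases, among them Gsta4, Gstm1 and Gstt1 above, and 3 were the lung-related Cyp2f2, Cyp2b10 and Cyp2s1 (Cyp2f2 -5.97, adjusted p = 3.0e-05). The call of Gstm1 (-2.43) was lost without metastasis 2 or 3 or without allograft 1. The 5 higher genes were Cyp1b1, Cyp3a13, Cyp4f18, Cyp51 and Gstm5. Their count fell to 1 without metastasis 1 or 2, and to 2 without metastasis 3 or allograft 1 or after TPM rescaling. The call of Cyp4f18 held under every alternative run. The UGTs gave no call in either direction between these groups (0 of 9).

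Members lie in clusters on the chromosomes, and 97 of the 135 belong to 13 clusters of at least 3 members with gaps under 500 kb. Within a cluster, tested neighbors went the same way in some and apart in others. All 3 tested Gstt genes (chr10:75774115-75837424) and both tested Gsta genes of chromosome 9 fell in metastases and allografts. In the Cyp4 cluster of chromosome 4, 3 of 8 tested genes fell in metastases and 5 in allografts, and 1 rose in each. In the Cyp4f cluster of chromosome 17, 3 of 5 tested genes rose in metastases and 1 fell. Of the 3 that rose, Cyp4f39 passed the filter through the metastases only. Over all genes, 14.4% fell and 54.0% rose in metastases, and 16.9% fell and 52.2% rose in allografts.

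The partners of these enzymes were read from gene lists named for their pathway. Of 8 electron partners, which feed electrons to P450s, none was lower in primary tumors, 1 in metastases (12.5%, under the 14.4% of all genes) and 4 in allografts (50%, against 16.9%), and 1 was higher in each group (12.5%, against 48.2% to 54.0%). The median changes were -0.21, -0.63 and -0.76. Por, the reductase that serves all microsomal P450s, measured 69.7, 91.0 and 117 FPKM in normal cells, 31.3, 38.1 and 41.8 in metastases and 10.4, 24.4 and 19.1 in allografts, and fell in allografts (-2.35, SE 0.54, adjusted p = 0.0028). In the next 3 lists, the shares of all genes to read beside the counts are again 14.4% lower and 54.0% higher in metastases and 16.9% and 52.2% in allografts. Of 18 genes of glutathione supply and turnover, 9 fell (50%) and 3 rose (16.7%) in metastases, and 10 fell (55.6%) and 3 rose in allografts. Of 36 other enzymes of oxidation and conjugation, 17 fell (47.2%) and 8 rose (22.2%) in metastases, and 23 fell (63.9%) and 4 rose (11.1%) in allografts. Of 10 transporters that export conjugates and drugs, 6 fell in metastases (60%) and 7 in allografts (70%), and 3 rose in each (30%).

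The list for UDP-glucuronic acid, the sugar donor of UGTs, held 4 genes. In metastases 2 fell (50%, against 14.4% of all genes) and 1 rose (25%, against 54.0%). In allografts 1 fell (25%, against 16.9%) and 2 rose (50%, against 52.2%). Slc35d1, a carrier of UDP-sugars into the endoplasmic reticulum, measured 25.4, 27.5 and 35.6 FPKM in normal cells, 4.92 to 5.03 in metastases and 3.06 to 6.83 in allografts, and fell in both (-2.33 and -2.53, adjusted p = 5.0e-05 and 2.7e-05). Ugp2, which makes UDP-glucose, measured 59.8 to 70.2 FPKM in normal cells and 32.9 to 35.8 in metastases (-0.88, adjusted p = 0.045), and 24.7 to 49.0 in allografts, where it was not called. Ugdh, which oxidizes UDP-glucose to UDP-glucuronic acid, measured 17.5 to 22.6 FPKM in normal cells, 22.0 to 24.4 in metastases and 33.5 to 74.5 in allografts, where it rose (1.12, adjusted p = 0.021, beside a median over all genes of 0.66). Gusb, the lysosomal enzyme that cleaves glucuronides and makes no donor, measured 4.72 to 7.62 FPKM in normal cells, 51.05 to 61.7 in metastases and 29.2 to 47.4 in allografts, and rose in both (3.04 and 2.53, adjusted p = 4.6e-05 and 1.3e-04).

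Among 19 tested receptors and factors of xenobiotic and sterol genes, 10 fell (52.6%, against 14.4% of all genes) and 6 rose (31.6%, against 54.0%) in metastases, and 10 fell (against 16.9%) and 5 rose (26.3%, against 52.2%) in allografts. Hnf4a, the nuclear receptor that drives many hepatic and tubular P450 genes, measured 203, 229 and 228 FPKM in normal cells, 9.10, 167 and 54.4 in primary tumors, 0.070, 0.24 and 0.064 in metastases and 0.23, 1.23 and 0.21 in allografts. It was lower in all 3 groups (-2.28, -7.62 and -7.21, SE 0.76, adjusted p = 0.028, 1.7e-05 and 2.1e-05). The primary tumors ran in the order 2, 3, 1 for Hnf4a, as did 49 of the members. Hnf4a is also among the 10 proximal tubule markers, whose sum ran in that order. The part of Hnf4a in the levels of the members was not tested. Nfe2l2, which induces many Gst genes, measured 31.3 to 40.1 FPKM in normal cells and rose in primary tumors (0.75, adjusted p = 0.0063) and metastases (1.06, adjusted p = 5.1e-04), beside medians over all genes of 0.59 and 0.68.

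In the promoter windows, which 110 of the 135 members had, the HNF4 motif CAAAGTCCA (both strands) was found in 10 of 128 windows (7.81%), against 0.475% of all windows. All 10 belonged to genes under the expression filter, of the Cyp2c and Cyp3a families and Cyp8b1, so that no tested member with a window held it. The HNF1 motif GTTAATNAT was found in 2.34% against 0.801%, and the antioxidant response element TGACNNNGC in 7.81% against 12.4%. No match says only that these letters are not in the window. Sequence sharing limits some of the values: 11 of the 71 tested genes share over 50% of their 31-base words with another gene, among them Cyp4a12a, Gsta2, Gstp2 and Ugt1a7c, and 43 share under 10%. No source used here tells how reads that fit several genes were divided.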

How the data were processed

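RNA of 12 libraries was measured as FPKM per gene, which the authors computed and deposited in 1 table with 24432 genes (24189 with a symbol in GENCODE M21). The submitters' processing notes name Salmon, bcl2fastq 2.17.1.14 and the builds GRCm38 and mm10. Gene lengths, library type and strandedness stand in none of the sources used here. Whether the proximal tubule columns were made with the same lengths and tool is also unknown, and each change against them rests on that. The filter kept genes with 3 or more of the 12 libraries at 1 FPKM or above (16313), and a pseudocount of 1 was added before log2, which understates changes of low genes. limma 3.58.1 in R 4.3.3, tested on simulated data, modelled all 4 groups at once, with a trend of variance on mean. Benjamini-Hochberg adjustment ran over all kept genes, with calls at an adjusted p under 0.05. The members, gene lists and tests were chosen with earlier results of these data known. Named genes were a list of anchors, the 6 largest called rises and 6 largest falls per comparison with a mean of at least 5 FPKM, and the most abundant member of each family. Cyp2a5, Cyp2d22, Cyp2j6, Cyp4a31, Cyp4f39, Gstm2, Gstm7, Gstp3, Ugt1a6a and Ugt2b5 fall outside it and were named after their values were seen. Cyp4x1os and Cyp8b1 also fall outside it, and were named for the symbol rule and for a promoter motif. Promoter windows came from RefSeq, and windows were aligned with free end gaps. Protein sequences were not used here, and the anchor Ugt1a2 was not analysed here. The alternatives tried were TPM rescaling, median-of-ratios scaling, quantile normalization, only the groups compared, a replicate block, each library left out, no primary tumors 2 and 3, the pseudocounts 0.1 and 5, and the filter dropped or set to 5 FPKM.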

Additional observations from a re-analysis of the deposited data

Results flagged for a closer look

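Cyp2j6, an epoxygenase in the same chromosome 4 cluster as Cyp2j5, was called higher in primary tumors and lower in allografts against the same proximal tubule libraries. It measured 6.76, 7.22 and 8.32 FPKM in normal cells, 11.1, 18.2 and 13.1 in primary tumors, 4.89, 4.10 and 4.79 in metastases and 3.88, 3.96 and 1.24 in allografts. The test of the difference between allografts and primary tumors gave -1.97 in log2(FPKM + 1) (SE 0.29, adjusted p = 7.5e-04, limma), with all 3 allografts under all 3 primary tumors. The change in allografts against normal cells was -1.15 (adjusted p = 0.0052). The rise in primary tumors (0.82, adjusted p = 0.037) was lost under each other scaling, without any 1 proximal tubule library, and without primary tumor 2 or 3, and it turned to -0.19 after TPM rescaling.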

How the results depend on the processing

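The counts of genes called lower in metastases (36) and allografts (38) against proximal tubule cells, and higher in metastases against primary tumors (7), stayed within 1.5 times under all alternatives run. In primary tumors against proximal tubule cells, the higher genes (19) became 11 with a filter at 5 FPKM. They became 7 after TPM rescaling, 11 under median-of-ratios scaling and 6 after quantile normalization. The lower genes (14) became 35, 24 and 22 under these 3 scalings and 8 with only the groups compared. Fits without primary tumors 2 and 3 leave a single primary tumor with no spread of its own, so their calls are not counted. The higher genes became 11 (TPM) and 7 (quantile) in metastases (18), and 5 (TPM), 7 (median of ratios) and 4 (quantile) in allografts (12). With only the groups compared, the lower genes became 10 in metastases (33) and 19 in allografts (45) against primary tumors, and without primary tumors 2 and 3 they became 13 and 26. The 2 genes higher in allografts than in primary tumors became 1 after TPM rescaling and with only the groups compared, and the 5 higher than in metastases became 2 after TPM rescaling.

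Leaving out 1 library gave 12 to 23 higher and 10 to 25 lower genes in primary tumors, 16 to 18 and 29 to 33 in metastases, and 9 to 11 and 35 to 37 in allografts, all against proximal tubule cells. It gave 6 to 8 higher and 14 to 44 lower genes in metastases and 1 to 4 and 32 to 50 in allografts against primary tumors, and 1 to 5 and 12 to 17 in allografts against metastases.

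The replicate numbers did not pair the samples (correlations of same-numbered deviations -0.043 to 0.098). A fit with the replicate number as a block gave 19 higher and 15 lower genes in primary tumors, 18 and 37 in metastases and 12 and 38 in allografts against proximal tubule cells. It gave 8 and 33 in metastases and 2 and 46 in allografts against primary tumors, and 4 and 17 in allografts against metastases.

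Over the 83 gene changes examined, 1158 of 1272 alternative values kept direction and call, 97 lost the call, 12 gained one and 5 reversed. Reversed were Cyp4a12a (-0.46) and Cyp2d9 (-0.17) in primary tumors without tumors 2 and 3, Cyp2j6 in primary tumors after TPM rescaling (-0.19), and Gsto1 in metastases (-0.22) and allografts (-0.58) after TPM rescaling. TPM rescaling and the other scalings shift all genes of a library by their construction, and fewer samples widen the spread in the smaller fits. The cause of the other changes was not tested. Values under about 0.1 FPKM rest on a few fragments in the tumor libraries.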
